A study of Mus musculus with 8 samples.

Results

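Apolipoproteins are the protein components of plasma lipoproteins, and the genes described here are Apoa1, Apoa2, Apoa4, Apoa5, Apob, Apoc1, Apoc2, Apoc3, Apoe and Apom. Members were all probe sets on the array whose only annotated gene symbol was one of these 10 names. The rule gave 14 of the 12488 probe sets in the table, for 9 of the 10 genes, among 8251 genes with a probe set of their own. No probe set carried Apoc3 as its only symbol, so Apoc3 was not analysed here. Of the 14 probe sets, 11 were bright enough to be tested (above a signal of 162 on the mean log2 scale, which is the median over non-control probe sets). These 11 covered all 9 genes.

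The RNA came from the livers of 8 female Ames dwarf mice, each measured on its own Affymetrix mouse U74Av2 array. Ames dwarf mice are homozygous for the df allele, which leaves the pituitary without the cells that make growth hormone, thyroid-stimulating hormone and prolactin. All 8 had free access to water and a standard pelleted diet and were 24 to 26 months old at death. They form 1 group, with no normal-sized or diet-restricted animals analysed here, so the data show how far these genes differed from liver to liver and nothing about the effect of the dwarf genotype. Livers are numbered 1 to 8 by the replicate number in the sample titles.

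Hepatocytes secrete most of these proteins. Apob is the large structural protein of very-low-density lipoprotein (VLDL) and, with the small intestine, the liver supplies it to plasma, where it carries triglyceride out. Apoa1 and Apoa2 are the main proteins of high-density lipoprotein (HDL), the exchangeable C and E proteins move between particles and steer lipases and receptors, and Apoa4 in mice is made by the intestine and by the liver, where its transcript is known to respond to fasting and fat load.

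Several member genes are neighbours in the genome. In the RefSeq annotation of GRCm38.p6, Apoa1, Apoc3, Apoa4 and Apoa5 follow each other on chromosome 9, and Apoc2, Apoc4, Apoc1 and Apoe do so on chromosome 7. Apob lies on chromosome 12, Apoa2 on chromosome 1 and Apom on chromosome 17. Promoter windows from 250 bases before to 50 bases after the gene start are printed for 4 members: Apoe and Apoa1, whose signals followed each other most closely among genes with a window, Apob, which varied most, and Apoa4, the dimmest. For Apoe the table lists 3 starts and the one it names at the top was used. The windows come from the RefSeq promoter table of GRCm38.p6 and read 5′ to 3′ on the gene's own strand. Capitals mark every exact match on either strand to any of 6 short motifs. These were the nuclear receptor half-site AGGTCA, the core of the TATA box, written as TATAAA here, and the CCAAT box. The others were the cAMP response element core TGACG, the HNF1 half-site spelled as GTTAAT here, and a part of HNF4-type sites that reads CAAAG on its strand.
Apoe, chr7:19699139-19699438, minus strand: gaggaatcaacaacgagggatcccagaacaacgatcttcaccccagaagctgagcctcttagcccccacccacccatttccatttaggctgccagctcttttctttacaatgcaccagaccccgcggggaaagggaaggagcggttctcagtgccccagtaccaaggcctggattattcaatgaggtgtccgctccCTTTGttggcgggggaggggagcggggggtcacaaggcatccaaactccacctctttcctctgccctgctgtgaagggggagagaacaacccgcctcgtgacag
Apoa1, chr9:46228380-46228679, plus strand: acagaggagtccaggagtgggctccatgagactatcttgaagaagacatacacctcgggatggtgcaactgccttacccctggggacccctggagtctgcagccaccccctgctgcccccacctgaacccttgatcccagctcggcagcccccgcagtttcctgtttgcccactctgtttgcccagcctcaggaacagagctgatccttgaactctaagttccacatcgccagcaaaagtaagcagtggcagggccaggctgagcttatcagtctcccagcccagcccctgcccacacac
Apoa4, chr9:46240594-46240893, plus strand: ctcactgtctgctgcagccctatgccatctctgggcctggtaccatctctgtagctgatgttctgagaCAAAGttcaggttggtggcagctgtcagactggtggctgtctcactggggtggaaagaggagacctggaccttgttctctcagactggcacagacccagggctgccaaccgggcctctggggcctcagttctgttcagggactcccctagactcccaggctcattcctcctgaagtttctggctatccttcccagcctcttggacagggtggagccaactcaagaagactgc
Apob, chr12:7977427-7977726, plus strand: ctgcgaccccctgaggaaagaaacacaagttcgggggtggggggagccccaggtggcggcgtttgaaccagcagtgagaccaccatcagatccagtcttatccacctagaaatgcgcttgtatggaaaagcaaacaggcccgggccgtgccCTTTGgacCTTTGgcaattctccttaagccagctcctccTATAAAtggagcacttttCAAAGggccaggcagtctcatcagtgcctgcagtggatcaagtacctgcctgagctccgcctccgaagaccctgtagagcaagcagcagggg

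The Apob window held 3 matches to CAAAG and 1 to TATAAA. The Apoe and Apoa4 windows each held 1 match to CAAAG, and the Apoa1 window held none of the 6 motifs in these exact letters. Windows were found for 8 members, and CAAAG occurred in 5 of the 8, beside 54.0% of all 27025 windows in the table. TATAAA occurred in 3 of the 8 (Apoa2, Apoa5 and Apob), beside 14.2% of all windows. AGGTCA was found in 1 of the 8 (16.0% of all), CCAAT in 1 (37.9%), TGACG in 2 (21.0%) and GTTAAT in 1 (7.20%). These are matches of letters, not sites of binding, and nothing in the array data tests them.

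The deposited arrays had nearly the same trimmed mean. With 2% of probe sets trimmed from either end, array means lay between 500.352 and 500.396, within 0.00896% of each other. Scaling of each array to a common target would give this, so it does not show how alike the arrays were before scaling. The array median lay between 155.6 (liver 3) and 180.75 (liver 8). Beta-actin control signal at the 3′ end ranged from 2167.3 (liver 6) to 15623.5 (liver 4), while that of Gapdh ranged only from 13719 to 18711.3. The summed signal of 14 macrophage markers ranged from 6016.1 in liver 7 to 28943.5 in liver 4, with 20317.1 in liver 8. Of its 12 tested genes 11 were called more variable than genes of like signal, beside 11.4% of all 4819 tested genes. These calls are from the typical-variance test described below, and limma's variance F test called 0 of this list. Saa3, an acute-phase gene, stood at 6487.9, 15525.5 and 9793.2 in livers 1, 4 and 8 and between 165.5 and 473.3 in the other livers. Hepatocyte markers, which define the labelled tissue, summed to between 99324.4 and 141306. Of 11 enterocyte markers on the array, 3 were bright enough to be tested: Anpep (1287.1 to 3369.4, called variable), Fabp2 (mean 655.0) and Lgals4 (mean 294.2). The other 8 were below the filter, and Vil1 was below the floor of 11.2 on every array. In whole liver, fewer cells of a type and less RNA per cell cannot be told apart.

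The 9 apolipoprotein genes spanned a wide range of signal, from about the brightest probe set of the array down to a mean of 845.388 for Apoa4. Each gene was represented by its probe set with the highest mean signal. Signal here is the deposited array intensity on a linear scale. It depends on how well each probe set binds as well as on the amount of RNA, so the order that follows is one of signals, not of transcript numbers per length.

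Apoe, the ligand through which remnant particles reach hepatic receptors, gave the highest mean signal of all 12422 non-control probe sets. Its signal was lowest at 26160.6 in liver 4, had a median of 28640.0 and was highest at 39246.4 in liver 3 (mean 30813.5 ± 5079.26, SD, n = 8). It ranked 1 or 2 on every array and was the brightest probe set on 5 of the 8, with Alb ahead in livers 4 and 8 and a Serpina1c probe set in liver 1.

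Apoa1, the main HDL protein and activator of lecithin-cholesterol acyltransferase, ranked 8 by mean signal. It was lowest at 22843.5 in liver 6, had a median of 24388.1 and reached 31497.2 in liver 3 (mean 26034.2 ± 3298.0, SD, n = 8). Apoc1, a small exchangeable protein that hinders receptor uptake, ranked 10, with 20848.2 in liver 6, a median of 23191.0 and 29603.5 in liver 3 (mean 24502.6 ± 3281.26, SD, n = 8). In all 3 of these genes liver 3 was the brightest, followed by livers 5, 2 and 1, and only the order among the dimmer livers 4, 6, 7 and 8 differed.

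Apoa2, the other main HDL protein, was read by the probe set 161924_f_at between 11078.1 (liver 8) and 18777.8 (liver 3), with a median of 12707.1 (mean 13736.7 ± 2522.57, SD, n = 8). Apoa5, which promotes lipoprotein lipase action at low plasma concentration, had 9960.3 in liver 4, a median of 12141.9 and 15267.2 in liver 3 (mean 12668.9 ± 1749.17, SD, n = 8). The suffix of that Apoa2 probe set marks probes that may also match related sequences. Liver 3 was again the brightest for both genes, whereas liver 5, among the brightest for Apoe, gave 12643.0 for Apoa2.

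Apoc2, the cofactor that lipoprotein lipase requires, lay between 5431.5 (liver 6) and 7770.9 (liver 4) with a median of 6592.6 (mean 6582.54 ± 727.162, SD, n = 8). Apom, a small HDL protein that carries sphingosine-1-phosphate, ranged from 1692.4 in liver 5 to 2235.7 in liver 1 with a median of 1963.5 (mean 1976.9 ± 194.841, SD, n = 8). For these genes the order of livers was unlike that of the brightest members: Apoc2 was highest in liver 4, where Apoe and Apoa5 were lowest.

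The order of members was tested between neighbours by the paired difference of log2 signals over the 8 livers, with an exact sign-flip permutation test whose smallest possible p is 0.0078. Of 8 neighbouring pairs, 6 differed in the same direction on all 8 arrays (each exact permutation test, two-sided, adjusted p = 0.0104). Even the small step from Apoa1 to Apoc1, 0.09 ± 0.030 log2 (SD, n = 8), kept its sign on all 8 arrays, as did that from Apoe to Apoa1, 0.24 ± 0.065. The steps at the lower end were larger, with 1.59 from Apob to Apom and 1.24 from Apom to Apoa4. Apoa2 and Apoa5 did not differ beyond their spread (0.11 ± 0.168 log2, higher in 6 of 8 arrays, exact permutation test, adjusted p = 0.143). Neither did Apoc2 and Apob (0.15 ± 0.813 log2, higher in 4 of 8 arrays, exact permutation test, adjusted p = 0.648). On each array Apoe was at place 1 among the 9 members, Apoa1 at place 2, Apoc1 at place 3, Apom at place 8 and Apoa4 at place 9.

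**Figure D1:**
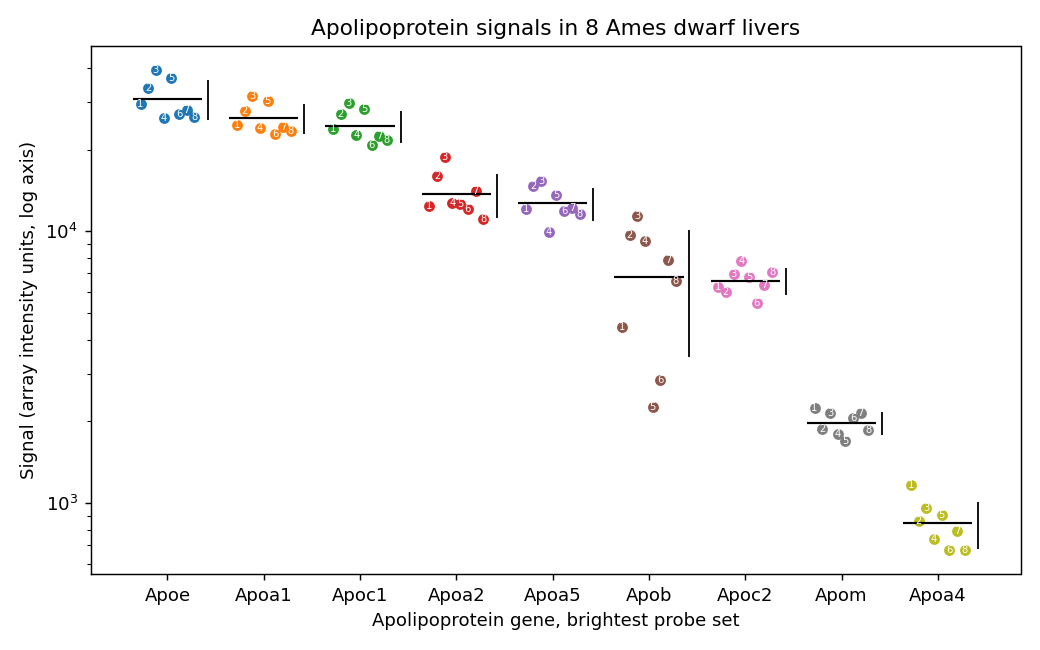
Signal of each apolipoprotein gene (brightest probe set, array intensity units, log axis) in 8 Ames dwarf livers. Points carry the liver number, horizontal lines are means and vertical bars 1 SD. Apob spreads from 2261.8 to 11416.6, while each other member stays within a 1.74-fold range.

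High signals can be compressed by the scanner or by saturated probes, and the bright members are among the highest signals. Apoe reached 94.6% to 100% of the highest signal on each array, Apoa1 80.3% to 88.8% and Apoc1 75.4% to 83.7%, whereas Apoa4 reached 2.41% to 3.90%. The array maximum ranged from 27091.6 (liver 6) to 39246.4 (liver 3), and only 1 or 2 probe sets per array lay within 1% of it. The arrays had nearly equal trimmed means, as after scaling to a common target. After such scaling a scanner ceiling would differ from array to array. Saturation of single probes need not show in the signal of a probe set either. These values therefore cannot show whether high signals were compressed. Between 19 and 39 probe sets per array exceeded 20000.

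The spread between livers became smaller with signal over all tested probe sets. Leaving the members out, the median SD of log2 signal was 0.270 for the 2866 probe sets with mean signals of 162 to 500, 0.187 for the 107 between 10000 and 20000, and 0.171 for the 21 above 20000. Apoe (SD 0.23 log2), Apoa1 (0.18) and Apoc1 (0.19) were in the last of these bins. Apoa1 and Apoc1 were slightly above its median, and Apoe was further above it, at 1.31 times the typical SD at its signal. Scanner pixel values and detection calls were not used here, so compression at these signals was not tested, and a fold range of Apoe, Apoa1 or Apoc1 may be smaller than that of the RNA.

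Variability was tested by setting each probe set's variance over the 8 livers against the typical variance of probe sets of like signal (a chi-square test with 7 degrees of freedom, Benjamini-Hochberg adjusted over all 6211 tested probe sets, called at an adjusted p of 0.05). Of the 11 tested member probe sets 1 was called, that of Apob, beside 12.5% of all tested probe sets, so the members' count was near the background. None was called less variable than its signal predicts, nor were any of the 6211 (0 called, 577 or 9.29% at an unadjusted p under 0.05, with 0 of the 11 members among them). The median fold range of the 9 genes, highest over lowest liver, was 1.50, beside 1.61 for all 4819 tested genes. With limma's variance F test, which sets each variance against a trended prior of few degrees of freedom, 0 of the 6211 were called (425 or 6.84% at an unadjusted p under 0.05, Apob among them).

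Apob was the member that varied. Its signals in livers 1 to 8 were 4446.0, 9691.4, 11416.6, 9226.5, 2261.8, 2840.2, 7876.7 and 6567.2 (mean 6790.8 ± 3350.7, SD, n = 8). Livers 5, 6 and 1 were low, livers 2, 3 and 4 high, and livers 7 and 8 between. The range was 5.05-fold and the SD 0.86 log2, which is 4.15 times the typical SD of 0.21 at that signal (typical-variance chi-square test across all tested probe sets, adjusted p = 5.83e-21). With limma's variance F test the adjusted p was 0.271 (unadjusted 0.00255). Of the 6211 tested probe sets, 97.4% had a smaller fold range. Without any single liver the range was still between 4.02-fold and 5.05-fold.

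Apoa4 was not among the variable members. Its signals in livers 1 to 8 were 1166.6, 861.8, 964.2, 736.1, 902.1, 671.8, 787.4 and 673.1 (mean 845.388 ± 167.29, SD, n = 8). Liver 1 stood above the rest, and the other livers lay between 671.8 and 964.2. The range was 1.74-fold, and 1.44-fold without liver 1. The SD of 0.27 log2 was 1.24 times the typical 0.22 at that signal (typical-variance chi-square test, p = 0.152, adjusted p = 0.555). A smaller SD was found in 73.5% of the 200 probe sets nearest in signal, and 61.0% of all tested probe sets had a smaller fold range.

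The other 7 genes had ranges from 1.32-fold to 1.70-fold by their brightest probe sets, and none of them was called either more or less variable. Apom was the narrowest, with 1.32-fold and an SD of 0.14 log2, 0.66 of the typical SD (one-sided chi-square test for less variable, adjusted p = 0.654). Apoa1 had 1.38-fold, Apoc1 1.42-fold, Apoc2 1.43-fold, Apoe 1.50-fold, Apoa5 1.53-fold and Apoa2 1.70-fold. Their adjusted p for being more variable lay between 0.421 (Apoe) and 1.0 (Apoc2 and Apom). Apoa4 at 1.74-fold was thus next to Apoa2 in range. For their signal, Apoe (1.31 times the typical SD) and Apoa2 (1.28 times) had larger SDs than Apoa4 (1.24 times). A p above the threshold does not show that these genes were equally steady.

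**Figure D2:**
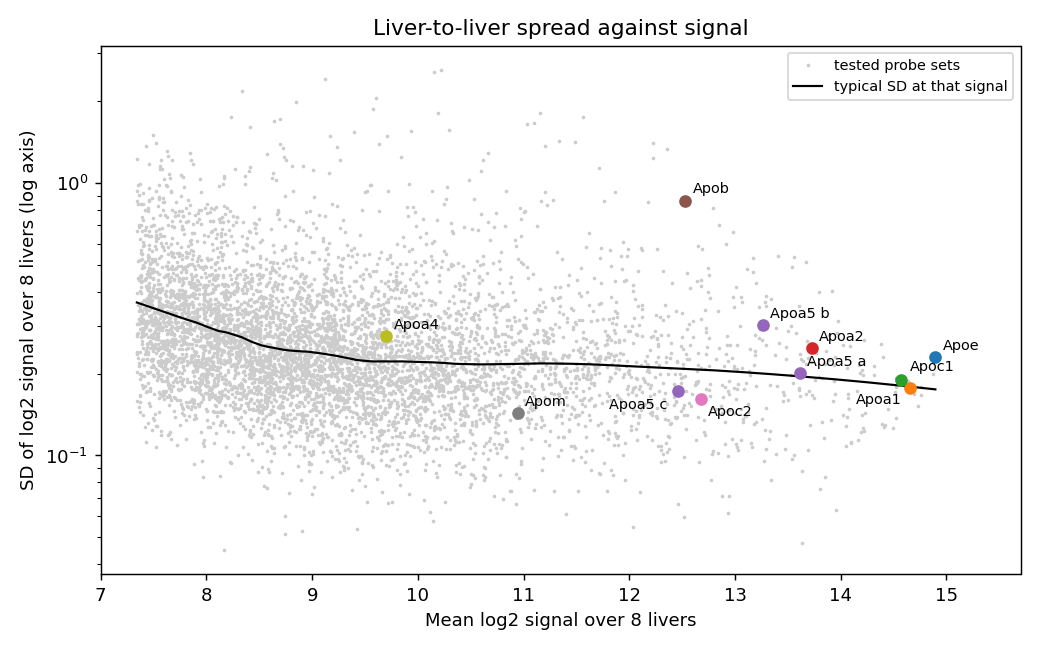
SD of log2 signal over 8 livers (log axis) against mean log2 signal for 6211 tested probe sets (grey), with the typical SD at each signal as a line and the 11 member probe sets coloured. Apob lies far above the line at an SD of 0.86, and Apoa4 lies close to it at 0.27; the 3 Apoa5 probe sets are lettered a to c in the order 95727_at, 95728_g_at, 95729_at.

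Members with several probe sets gave different readings of spread. The 3 probe sets of Apoa5 all had their lowest signal in liver 4. They ranged 1.53-fold (95727_at, mean 12668.9), 2.04-fold (95728_g_at, 10039.9 ± 2008.97) and 1.45-fold (95729_at, 5667.09 ± 656.402). The widest of them had an adjusted p of 0.159 (chi-square test, unadjusted 0.0265). Without liver 4 the ranges were 1.32-fold, 1.51-fold and 1.25-fold. The first pair followed each other over the livers (r = 0.976, rho = 0.976, exact permutation test, adjusted p = 0.0003 over 6 pairs of probe sets), and the other pairs, with r of 0.645 and 0.708, did not pass (exact permutation tests, adjusted p = 0.124 and 0.109).

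The other 3 genes had a bright and a dim probe set. The second Apoa2 probe set, 99648_at, read 97.975 ± 25.5 (SD, n = 8; range 59.6 to 143.6) where the first read 140 times as much. Its order of livers ran the other way, with r = -0.705 (exact permutation test, adjusted p = 0.109). The dim probe sets of Apoe and Apom had means of 14.1 and 12.2 and were above the floor on 3 of 8 arrays each. These 3 probe sets were below the filter and entered no test.

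Over the 8 livers the brightest members rose and fell together in the table as deposited. Of the 36 pairs among the 9 genes, 4 had a Pearson correlation that passed the exact permutation test over all 40320 pairings after adjustment over the 36, and 10 passed unadjusted. Apoa1 and Apoc1 had r = 0.989 and rho = 0.976 (exact permutation test, adjusted p = 0.00179; r = 0.994 with the 2 livers of most extreme Apoa1 left out). Apoa1 and Apoe had r = 0.982 and rho = 0.905, and Apoc1 and Apoe had r = 0.970 and rho = 0.833 (exact permutation tests, adjusted p = 0.00536 each; r = 0.926 and 0.913 without 2 livers). Apoa5 and Apoe had r = 0.884 and rho = 0.952 (exact permutation test, adjusted p = 0.0232; r = 0.854 without 2 livers). By Spearman's rho, 2 of the 36 pairs passed after adjustment, Apoa1 with Apoc1 and Apoa5 with Apoe.

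**Figure D3:**
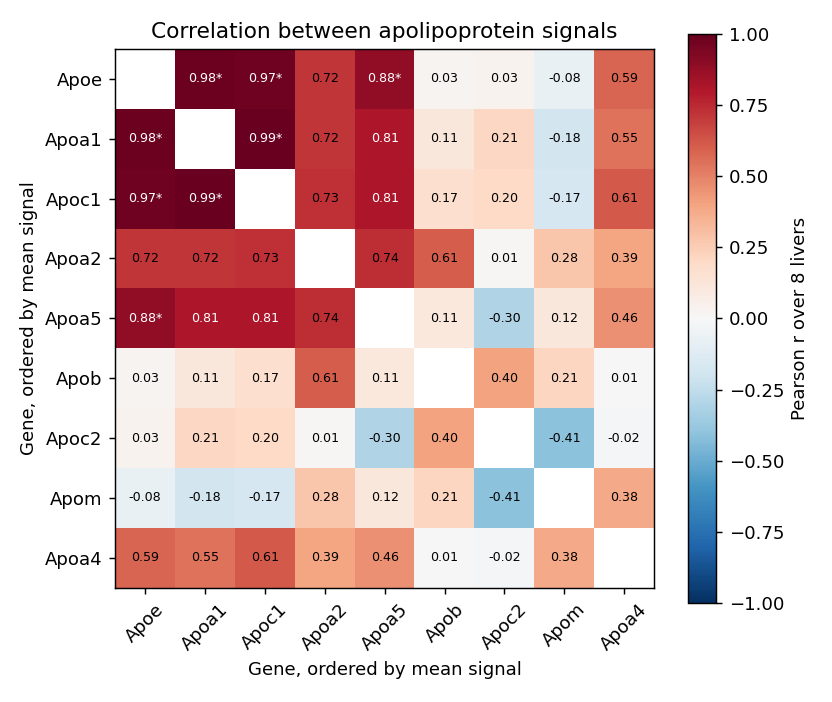
Pearson r between the log2 signals of each pair of members over 8 livers, genes ordered by mean signal; colour gives r from -1 to 1 and an asterisk marks the 4 pairs with an adjusted p under 0.05. The brightest members form a block at the upper left, and rows of Apob, Apoc2 and Apom hold values between -0.41 and 0.61.

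How many pairs passed depended on the scaling. With arrays scaled to a common median 10 pairs passed, and with the mean of all probe sets of a gene 1. With quantile normalization 0 of the 21 pairs that could be run passed. No pair with Apoa1 or Apoe could be run there. Each of the 4 pairs called as deposited holds Apoa1 or Apoe, so this 0 does not test them. The 200 brightest other probe sets shifted between livers as well, and their median deviation ran from -0.11 log2 in liver 4 to 0.17 in liver 3. The deviations of Apoe ran from -0.22 in liver 4 to 0.37 in liver 3, and those of Apoa1 from -0.18 in liver 6 to 0.28 in liver 3. In liver 4 Apoa1 was at -0.10, and in liver 7, where the shift was near 0, it was at -0.10 too.

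Each member was set against the median shift of the 200 other probe sets nearest to it in signal. For the 5 brightest members these were the 200 brightest. The shift followed Apoe with r = 0.953 and rho = 0.952, and Apoa5 with r = 0.940. Its r was 0.918 with Apoa1, 0.915 with Apoc1 and 0.848 with Apoa2. These 5 of 9 members passed (exact permutation tests, adjusted p between 0.00223 and 0.0100), and r for Apoa2 was 0.480 once the 2 most extreme livers were left out. The dimmer members were set against other shifts, which ran from -0.07 to 0.05 log2 for Apoa4. With these, r was 0.283 for Apoa4, -0.053 for Apob, -0.301 for Apoc2 and 0.582 for Apom, none of them called. These r do not say how the dimmer members followed the shift of the brightest probe sets. With its like-signal shift removed from each probe set, 1 pair passed: Apoa1 and Apoc1 at r = 0.961 (exact permutation test, adjusted p = 0.00893). That pair passed in all 15 other settings in which it could be run, Apoa1 with Apoe in 13 of 15, Apoc1 with Apoe in 13 of 15 and Apoa5 with Apoe in 7 of 15. Leaving out liver 1 or liver 5 gave 7 called pairs. Without liver 2, 0 of the 21 pairs that could be run were called. No pair with Apoa1 or Apoe could be run there either, so the pairs called as deposited were not tested without liver 2.

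Of the 9 members 3 had a called correlation with the array median. Apoa2 (r = -0.830), Apoa5 (r = -0.850) and Apoe (r = -0.830) were lower where the median was higher (exact permutation tests, adjusted p = 0.0315 each over 9 members; 5 unadjusted). The other 6 did not pass, with r from -0.754 (Apoa1) to 0.317 (Apoc2). With arrays scaled to a common median 0 of 9 passed. That scaling makes the array medians nearly equal, so this count does not test the relation. The deposited arrays share nearly the same trimmed mean, so an array with higher bright signals tends to have a lower median. A negative r of bright members with the median is thus partly built in, and its p does not measure a separate relation. Over the 9 genes, liver 3 gave the highest signal for 6 and liver 6 the lowest for 4. Whether these shifts lie in the RNA or in the scaling of bright signals was not tested.

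**Figure D4:**
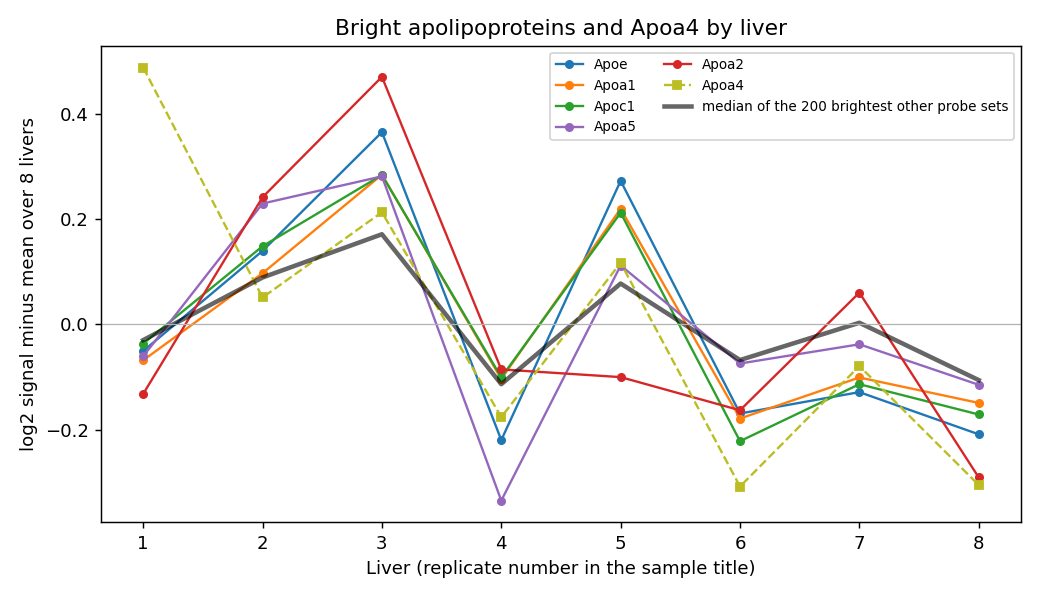
Log2 signal minus its mean over 8 livers for the 5 brightest members (circles), Apoa4 (squares, dashed) and the median of the 200 brightest other probe sets (thick line), by liver. All lines are above 0 in liver 3, and Apoa4 is highest in liver 1, where the 5 bright members lie below 0.

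Apoa4 had no called correlation with another member over the 8 livers, though its r with 3 of them was high once liver 1 was left out. Over 8 livers its r was 0.546 with Apoa1 (rho = 0.857), 0.613 with Apoc1, 0.585 with Apoe, 0.457 with Apoa5, 0.391 with Apoa2 and 0.376 with Apom, and none passed after adjustment (exact permutation tests). Without liver 1, r was 0.960 with Apoa1 (rho = 1.0), 0.967 with Apoc1 and 0.940 with Apoe (7 livers). Each of these 3 pairs was called in that setting only, of 15 other settings run for Apoa1 and Apoe and 17 for Apoc1. In liver 1 Apoa4 stood 0.49 log2 above its mean, where Apoe, Apoa1, Apoc1 and Apoa5 were each below theirs. Each liver was left out in turn, and liver 1 is singled out here because of its values, so no p is given for the 7 livers. The same liver also had the highest Fasn signal, 3243.1, and high Saa3. Whether these move together with Apoa4 was not tested beyond the correlations that follow.

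Against 19 fixed genes of fasting, fat and nuclear receptor pathways, Apoa4 passed in none (0 called and 0 at an unadjusted p under 0.05, exact permutation tests, smallest adjusted p 0.855). The largest r was 0.578 (rho = 0.667) with Nr1h3, a sterol receptor, followed by 0.491 with the coactivator Ppargc1a, and the most negative was -0.383 with Igfbp1. It was 0.125 with Ppara, the fatty acid receptor, 0.338 with its target Cyp4a14, 0.459 with Pck1 and 0.450 with G6pc, enzymes of glucose production, 0.389 with Fasn and 0.466 with Srebf1, of fatty acid synthesis, and -0.224 with Fabp2, an intestinal fatty acid binding protein. Creb3l3 and Fgf21 had no probe set, and Cidec was below the floor on every array. Saa3 could not be set against any member, since its values fall into separate clusters with a gap of over 50% of the range.

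By likeness of pattern, the genes with the highest Pearson r with Apoa4 among 4818 others were Psme3 (0.931), Bcap31 (0.927), Clptm1 (0.912), Efnb1 (0.910) and Usp4 (0.908). All 5 were highest in liver 1, as Apoa4 was. The lowest r belonged to Ppp1r21 (-0.905), Xdh (-0.890), Tbce (-0.874), Rad51ap1 (-0.872) and Spsb2 (-0.866), each of them lowest in liver 1. Xdh, xanthine dehydrogenase, ranged from 556.9 to 2417.3. These genes were picked for their r, so no p is given. Apoc1 was the member closest to Apoa4, at place 217 of the 4818.

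Apob had no called correlation with another apolipoprotein. Its r with each of the other 8 genes lay between 0.006 (Apoa4) and 0.608 (Apoa2), and none passed after adjustment (exact permutation tests). With Apoa2 its rho was 0.762 (exact permutation test, unadjusted p = 0.0368, adjusted p = 0.132). In livers 5 and 3, both bright for Apoe at 36806.2 and 39246.4, Apob was at 2261.8 and 11416.6. It was low in liver 6 too, at 2840.2, where Apoe was 27091.6. The shift of the probe sets nearest to Apob in signal was unlike Apob (r = -0.053).

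Apob moved with several array controls. In a family of 10 array measures looked at after the values were seen, beta-actin 3′ had r = 0.847 and rho = 0.810, beta-actin 5′ had r = 0.859, and the 18S ribosomal RNA control had r = 0.894 and rho = 0.738 (exact permutation tests, adjusted p = 0.0272, 0.0272 and 0.0228). With the 2 livers of most extreme control signal left out, the r were 0.652, 0.627 and 0.877. The gene probe sets of Actb had r of 0.686 and 0.875. The other 7 measures did not pass. Among signals, r was -0.051 for Gapdh 3′, 0.401 for the B2 repeat, 0.60 for spiked-in transcripts (rho = 0.714) and -0.099 for the array median. Among 3′ to 5′ ratios, r was -0.380 for beta-actin, -0.154 for Gapdh and 0.581 for pyruvate carboxylase (rho = 0.714). The pyruvate carboxylase ratio ranged from 2.93 in liver 6 to 8.81 in liver 2. With livers 1 to 4 and 5 to 8 centred separately, r was 0.774 for beta-actin 3′, 0.783 for beta-actin 5′, 0.889 for 18S and 0.192 for spiked-in transcripts. The part of these measures in the spread of Apob was not tested.

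The genes most like Apob in pattern were Sf3b1 (r = 0.985), a splicing factor subunit, Med1 (0.981), a Mediator subunit, Strn3 (0.970), Nrip1 (0.962), a nuclear receptor corepressor, and Prpf19 (0.958). Sf3b1 was at 192.8 in liver 5 and 915.6 in liver 4, and Med1 at 74.9 in liver 6 and 536.1 in liver 3. At the other end were Dpf2 (-0.965), Srsf9 (-0.928), Abhd16a (-0.926), Eif3l (-0.918) and Jak1 (-0.907), with ranges up to 1.42-fold. Ppara had r = 0.952 and rho = 0.905 with Apob, with 677.7 in liver 6, 882.9 in liver 5 and 3924.6 in liver 3. These genes were chosen after their values were seen, and their r are descriptions without a p.

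**Figure D5:**
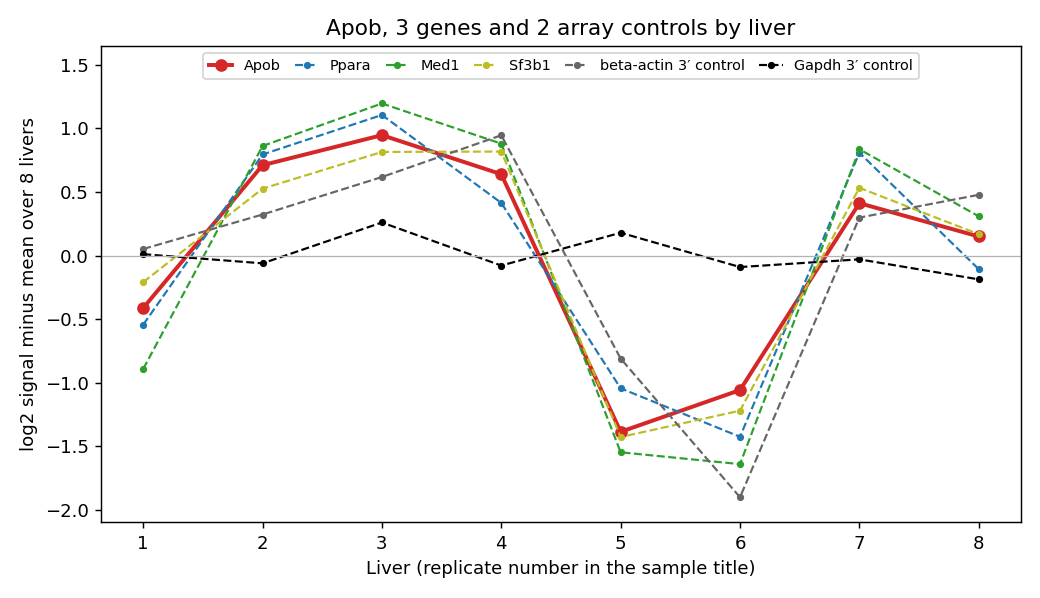
Log2 signal minus its mean over 8 livers for Apob (thick line), Ppara, Med1 and Sf3b1, and for the 3′ controls of beta-actin and Gapdh, by liver. Apob, the 3 genes and beta-actin drop in livers 5 and 6, and Gapdh stays within 0.26 of its mean.

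The genes that build, remodel and take up lipoproteins gave a mixed picture. Lists were described by counts of variable genes (typical-variance chi-square test, adjusted p under 0.05), beside 11.4% of all 4819 tested genes. Limma's F test called 0 in every list.

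Of 7 tested receptors and uptake proteins 0 were called, with a median range of 1.38-fold; so short a list gives few calls at the background share. Lrp1, a remnant receptor, lay between 3792.4 and 5289.2, and Scarb1, the HDL receptor, between 3801.5 and 5234.8. Among the tested genes the widest ranges were those of Sdc1 (1.72-fold), Lrpap1 (1.41-fold) and Lrp1 (1.39-fold). The dimmer, untested genes of the list included Vldlr, which ranged 2.83-fold from 77.9 to 220.1, and Cd36 (1.86-fold), Cubn (1.59-fold) and Lrp2 (1.43-fold).

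Among other apolipoproteins and HDL-bound proteins 3 of 10 were called, and the median range was 1.50-fold. Saa2, an acute-phase HDL protein, spanned 31.7-fold, with 582.9 in liver 3 and 18452.9 in liver 4. Saa4 ranged 4.83-fold, with its highest signal, 2469.6, in liver 1 and its lowest, 510.9, in liver 4. Apof, an inhibitor of lipid transfer, read 2503.7 in liver 5 and 6018.8 in liver 4, 2.40-fold apart. Apoc4, Apoh, Clu, Pon1, Pon2, Pon3 and Rbp4 ranged between 1.35-fold and 1.78-fold and were not called. Macrophage markers and Saa3 were high in livers 4 and 8, as Saa2 and Apof were. In liver 1, where macrophage markers summed to 11417.2, Apof was at 5571.3, above its 5017.9 in liver 8. Saa2 (5325.0) and Saa3 (6487.9) were raised in liver 1 as well. The part of macrophage markers and Saa3 in these ranges was not tested.

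Of 8 lipases and remodelling enzymes 3 were called, with a median range of 2.11-fold. Lpl, lipoprotein lipase, read 189.3 in liver 5 and 1079.0 in liver 4, a 5.70-fold range. Angptl4, an inhibitor of it, had 299.5 in liver 4 and 1058.0 in liver 2, a 3.53-fold range. Ces3a, a triglyceride hydrolase, ranged 2.26-fold. Lcat, the enzyme that Apoa1 activates, lay between 6504.6 and 9781.0 and was not called.

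Of 13 genes of assembly and lipid supply 3 were called, with a median range of 1.79-fold. Mttp, which loads lipid on Apob, had 204.4 in liver 5 and 571.6 in liver 7, a 2.80-fold range. Sar1b, a coat protein needed for export of large particles from the endoplasmic reticulum, had 1042.5 in liver 5 and 2895.1 in liver 7 (2.78-fold). Apobec1, the enzyme that edits Apob mRNA, had 148.6 in liver 5 and 535.9 in liver 4 (3.61-fold). All 3 were lowest in liver 5, as was Apob, whereas liver 3, the highest for Apob, gave 353.6 for Mttp and 198.1 for Apobec1.

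Of 21 tested transcription factors known to act on apolipoprotein genes 5 were called, with a median range of 1.73-fold. Ppara ranged 5.79-fold, Cebpb 2.60-fold, Nr1d1 2.33-fold, Nr1h4 (the bile acid receptor FXR) 2.12-fold and Hnf4a 2.05-fold. Hnf4a was at 1529.0 in liver 5 and 745.8 in liver 2. Rxra, Nr1h3, Nr5a2, Thra and Thrb ranged between 1.23-fold and 1.53-fold and were not called. Nr0b2 (2.17-fold) and Rora (2.08-fold) were not called either, though their ranges were wider than that of Hnf4a. The dimmer, untested genes of the list included Nr2f1 (10.3-fold, from 6.0, which is below the floor, to 61.8) and Ppargc1a (3.76-fold).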

How the data were processed

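RNA from 8 livers was measured on 1 Affymetrix array each. The deposited table holds linear intensities, 1 for each probe set of each array. What image software and scaling target were used is not given in the sources used here. The trimmed means agree within 0.00896% (500.352 to 500.396), as after scaling to a common target. The table was therefore used as deposited. The 66 control probe sets entered no test. Of the other 12422, 10833 carried 1 gene symbol, 396 several and 1193 none. Intensities under 11.2 (the 10th percentile) were set to it, and log2 was taken.

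The typical-variance test set each variance against a loess curve (span 0.3) of log2 variance on mean log2 signal, fitted with a robust family and rescaled so that the median ratio equals the chi-square median. The robust fit and the rescaling were set when the method was coded and were not part of the design. It was taken as the main test with earlier results known, and the choice decides the calls, since limma 3.58.1 in R 4.3.3 calls 0 probe sets. That F test used the largest robust prior, 4.9 degrees of freedom, after a version with a prior per probe set gave 0 unadjusted p under 0.05. On simulated data for 6211 probe sets of equal variance, the typical-variance test called 92 of 100 raised 3-fold, 100 of 100 raised 6-fold and 6 of 6011 unchanged. With unequal variances it called 81, 99 and 637. Their spread was a fixed setting and was not fitted to the real variances, so these counts are not error rates for the real data. Calls of this test are of genes more variable than most, for any reason.

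Members, lists and tests were chosen with earlier results of these data known. The correction for like-signal shifts, the correlations with those shifts, the array measures of Apob, its most similar genes and its relation to Ppara were added after values were seen. Named genes were all member probe sets, the called genes and the 3 widest of each lipoprotein list, the 5 highest and 5 lowest r with Apoa4, and the fixed genes; other genes were named after their values were seen. Correlations used exact permutation tests in scipy 1.17.1, and none was run where a gap over 50% of the range split the livers. Alternatives were scaling, floor, filter, loess span, limma, the choice of probe set and leaving out livers. The labels name no pooling and no batch. Spiked-in transcripts had a mean log2 signal of 10.70 to 10.88 in livers 1 to 4 and of 10.18 to 10.46 in livers 5 to 8. Whether these sets of arrays were handled apart was not tested. The most similar pair of arrays shares 0.296% identical values.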

Additional observations from a re-analysis of the deposited data

Results flagged for a closer look

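Of 29 genes examined for a liver standing apart from the others (the members and the genes set against Apoa4), 2 had a gap wider than Dixon's critical value for 8 samples; chance gives about 1 in 20. Fasn, fatty acid synthase, was highest in liver 1 at 3243.1, the liver in which Apoa4 was highest too, and the gap to the next liver was 0.571 of the range of log2 signals. Igfbp1, an insulin-repressed binding protein, was lowest in liver 5 at 709.4, the liver in which Apob was lowest, with a gap of 0.543 of the range. No apolipoprotein was among them, Apoa4 in liver 1 and Apob in liver 5 included. Whether these genes and the apolipoproteins shared a source of variation in those livers was not tested.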

How the results depend on the processing

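Apob was the 1 member probe set called more variable in 19 of 20 other settings run, and limma's variance F test called 0. No member was called less variable in any of the 20, and 6 of 8 neighbours in the signal order were separated in each of the 10 settings in which it was run, though without liver 5 Apob and Apoc2 swapped places and so had other neighbours. The count of correlated member pairs, 4 as deposited, was 10 with a common median, 0 with quantile normalization and 1 with the mean of all probe sets of a gene. It was 1 with like-signal shifts removed. Over the livers left out in turn it ran from 0 (without liver 2) to 7. With quantile normalization and without liver 2, no pair with Apoa1 or Apoe could be run. The 4 pairs called as deposited all hold Apoa1 or Apoe, so these counts of 0 do not test them. The count of members correlated with the array median, 3 as deposited, was 0 with the mean of all probe sets. It ran from 0 to 5 with a liver left out (without liver 3, 0 could be run). It was also 0 with a common median and 0 with like-signal shifts removed. Both of these settings take out differences in the array median itself, so their counts do not test the relation. After centring livers 1 to 4 and 5 to 8 separately, 2 members correlated with Saa3 (Apoa2, r = -0.888, and Apoa5, r = -0.866, permutation tests, adjusted p = 0.0230 each). Centring ties the values within each set of livers, which the permutations ignored, so these p are approximate. As deposited none could be run, and without livers 4 and 8, 9 were run and 0 called. Quantile normalization narrowed the ranges of Apoe to 1.04-fold, Apoa1 to 1.07-fold and Apoc1 to 1.09-fold, and a common median widened that of Apoa1 to 1.57-fold. The cause of these shifts was not tested. No paired analysis was possible because there is 1 group. Detection calls were not used here, so for the dim probe sets signal over background is unknown.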
